A study of Caenorhabditis elegans with 2 samples.

Results

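The genes described here encode the retinoblastoma-like protein LIN-35 and the other subunits of the DREAM complex of Caenorhabditis elegans, 8 genes of the 19973 nuclear protein-coding genes in the annotation. They are lin-35, efl-1, dpl-1, lin-9, lin-37, lin-52, lin-53 and lin-54, and all 8 are described whether or not they had a region. The genes were chosen by their membership of the complex, at a time when regions near lin-35 (signal value 241.8) and lin-54 (108.6) were already known. The presence of those regions is therefore a description and carries no test. The material was late embryos of hermaphrodite worms of strain OP488, which carries unc-119(tm4063) III and the transgene wgIs488, expressing SYD-9 with GFP and FLAG at its C terminus. Embryos were collected 4 hours after synchronization by bleaching, and chromatin was precipitated through the GFP tag in 2 biological replicates that form 1 group. Whole embryos were used, so a region cannot be assigned to a tissue, and a precipitation from worms without the tag was not analysed here.

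DREAM is a repressor complex that keeps cell cycle and germline genes off, in worms mainly in somatic cells. It is built from a pocket protein, an E2F-DP pair that reads E2F elements, and a MuvB core whose LIN-54 subunit binds elements called CHR. In worms most of its genes were found as class B synthetic multivulva (synMuv) genes, which act redundantly with other classes to restrain vulval fate. SYD-9, the tagged protein, has zinc fingers and was first studied for its part in organising synaptic vesicles.

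Each deposited region has a summit and a signal value, the authors' peak score relative to a control, whose scale is not stated. A summit was assigned to a gene when it lay within 1000 bp of one of the gene's annotated 5' ends, and distances are negative upstream. The strictest list, of regions that passed a cutoff on the irreproducible discovery rate (IDR), held 941 regions with values of 95.2 to 932.3. The pooled list held 13472 regions with a median value of 44.8, and the lists of replicate 1 and replicate 2 held 10468 and 20425, medians 25.13 and 22.9. These 3 lists fed the IDR step and hold background as well as peaks. Over the 935 IDR regions found in both replicates, the pooled value was close to the sum of the replicate values (median ratio 1.00, quartiles 0.983 and 1.02), so a pooled value and a replicate value are on different levels. The lists hold no read counts, and the depth is unknown.

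Sequence is shown for lin-9 and lin-54, 2 MuvB core genes whose upstream regions hold both kinds of element that DREAM itself is known to read. They are examples, since lin-53 and efl-1 also held both kinds and lin-35 held neither. The CHR form TTTGAA alone was in 62.5% of all promoters. Capitals mark matches to the CHR form TTTGAA (reverse complement TTCAAA) and to a relaxed E2F element, TTTNNCGC (reverse complement GCGNNAAA). The lin-9 stretch is centred on its pooled summit, chrIII:8904165-8904464 on the minus strand, from 333 to 34 bp upstream of the 5' end. The lin-54 stretch is the intergenic part of its IDR region, chrIV:13240652-13240851 on the plus strand, from 392 to 193 bp upstream, beside the summit and without it. Both are in build ce11 (WBcel235), are read 5' to 3' on the gene's own strand, and come from the RefSeq genome.
lin-9: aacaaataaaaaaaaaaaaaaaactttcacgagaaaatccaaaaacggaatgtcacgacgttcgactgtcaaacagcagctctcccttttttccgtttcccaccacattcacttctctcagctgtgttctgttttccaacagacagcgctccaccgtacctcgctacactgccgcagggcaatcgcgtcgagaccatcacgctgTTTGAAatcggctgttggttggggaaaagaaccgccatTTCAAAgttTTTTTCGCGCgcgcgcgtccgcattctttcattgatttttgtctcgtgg
lin-54: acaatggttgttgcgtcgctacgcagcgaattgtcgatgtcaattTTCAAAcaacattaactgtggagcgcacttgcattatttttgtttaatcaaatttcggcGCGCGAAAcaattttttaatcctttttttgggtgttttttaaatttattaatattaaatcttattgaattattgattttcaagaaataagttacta

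The lin-9 stretch held 2 matches to TTTGAA and 2 overlapping matches to TTTNNCGC, the last ones starting 82 and 80 bp upstream of the 5' end. The lin-54 stretch held 1 match to each, 347 and 288 bp upstream. These are letters in a window and not mapped sites.

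Of the 8 DREAM genes, 3 had an IDR summit within 1000 bp, namely lin-35, lin-53 and lin-54, against 3.42% of all nuclear protein-coding genes (683 genes). The summit lay upstream at all 3. Only at lin-53 was the gene's own 5' end the closest to the summit, which was so for 1.75% of all genes. The pooled list added lin-9 and efl-1, giving 5 of 8 members against 30% of all genes. In the replicate lists, 6 of 8 had a summit in replicate 1 (25.6% of all genes) and 6 of 8 in replicate 2 (39.4%), with dpl-1 in the first list alone and lin-52 in the second alone. In none of the 4 lists did lin-37 have a summit within 1000 bp.

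**Figure D1:**
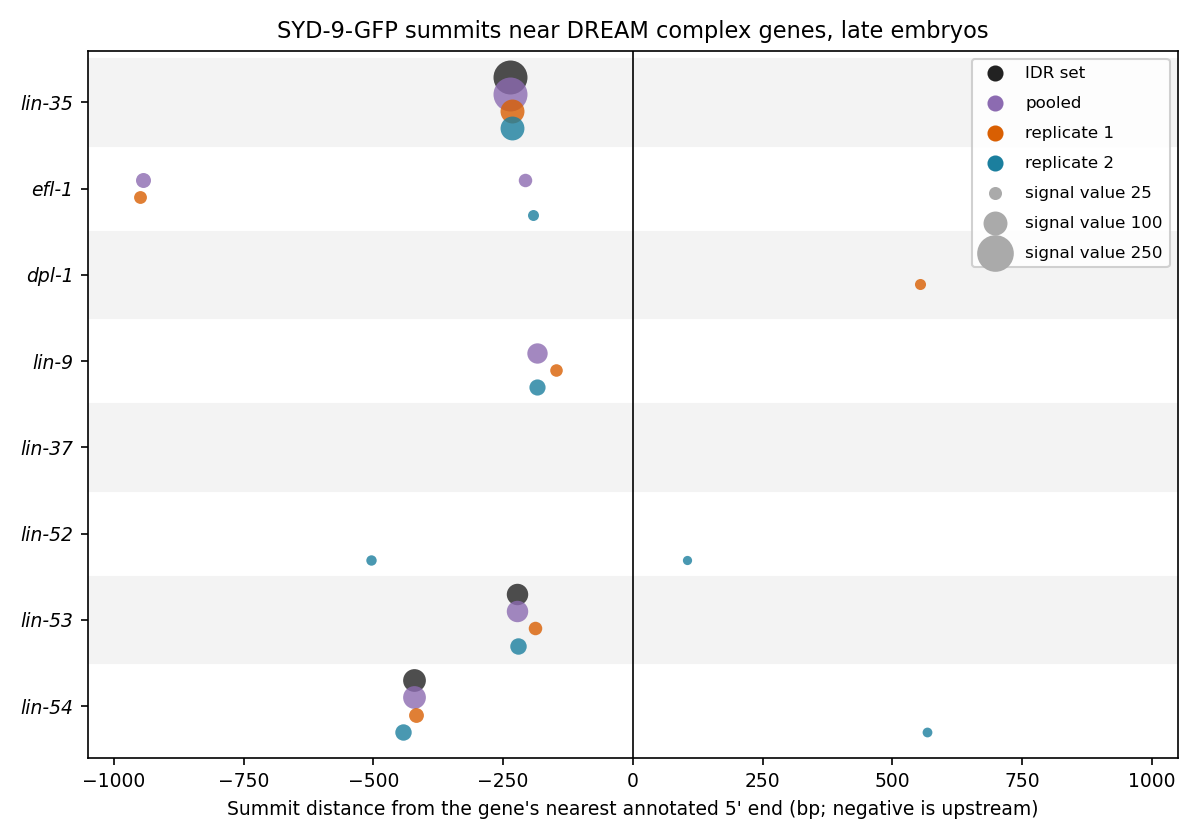
Position of every summit within 1000 bp of a 5' end of the 8 genes (horizontal axis, bp, negative upstream), with 1 row per gene, colour for the list and point area for the signal value. The summits at lin-35, lin-53 and lin-54 fall at nearly the same place in all 4 lists, those at lin-9 in 3 lists, and lin-37 has none.

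The pocket protein gene had the strongest region of the 8. At lin-35 (WBGene00003020, chromosome I, 5807709 to 5815637, plus strand), whose product is the worm's retinoblastoma-family protein, the signal value was 120.2 in replicate 1 and 119.5 in replicate 2; the pooled and IDR lists gave it 241.8. The summit stood 232, 233 and 237 bp upstream in replicate 1, replicate 2 and the pooled list. The replicate values lay within 1 unit of each other, and their summits were 1 bp apart. Among the IDR regions it ranked 93 of 941, and it was ranked 77 of 10468 in replicate 1 and 133 of 20425 in replicate 2. By the highest pooled value within 1000 bp of a 5' end, lin-35 ranked 55 of 19973 genes. Of these genes, 5992 had a pooled summit, and the neighbouring gene vps-51 shares the lin-35 region.

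The lin-35 summit was intergenic, in a promoter shared with vps-51, a gene for a subunit of a vesicle tethering complex that is transcribed away from lin-35. The 5' ends of the pair are 418 bp apart. The IDR summit lay 237 bp from lin-35 and 181 bp from vps-51, 28 bp from the midpoint, and vps-51 was the closer gene in all 4 lists. The region cannot be assigned to one gene of the pair. No other pooled summit lay within 10000 bp of the lin-35 5' end. Beyond the 1000 bp limit, replicate 2 alone had weak regions 1083 and 1341 bp downstream (23.8 and 17.6).

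The lin-35 region was compared with the 542 other nuclear IDR regions near a protein-coding 5' end that were matched in both replicates. Those with replicate values most like the ones of lin-35 were at F29B9.11, rpl-15 and nmad-1. Likeness was the Euclidean distance of the log2 signal values over the 2 replicates, which was 0.08, 0.09 and 0.11. The region at rpl-15, a ribosomal protein gene, scored 126.2 in replicate 1 and 115.4 in replicate 2, with its summit 342 bp upstream. That at F29B9.11 scored 126.6 and 119.8, and that at nmad-1 scored 117.9 and 110.9. These genes were matched on signal value only. Each of the regions had 2 protein-coding genes within 1000 bp and is named here by the nearer one. By that rule the lin-35 region would be named vps-51.

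The E2F and DP genes had no IDR summit. The gene efl-1 (WBGene00001161, chromosome V, 16958590 to 16965675, minus strand) encodes the E2F-family factor of the complex. Its pooled list held a region with a value of 47.1 at 944 bp upstream and a weaker one of 38.0 at 207 bp upstream. The farther region was present in replicate 1 (34.5) and not in replicate 2, and its summit lay 195 bp upstream of the F-box gene fbxa-90. The nearer region was present in replicate 2 (25.3) and not in replicate 1. So no region near efl-1 was seen in both replicates, and the -log10 q-values of its pooled regions were 0.204 and 0.0501, against at least 1.55 for IDR regions.

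The partner gene dpl-1 (WBGene00001061, chromosome II, 9169910 to 9172565, plus strand) encodes the DP subunit. Its 1 region was in replicate 1, with a value of 25.6 and a summit 554 bp downstream in its own coding sequence, close to that list's median of 25.13. The whole gene lies inside T23G7.2 on the opposite strand. The nearest pooled summit was 7451 bp upstream (38.2). A relative of efl-1, efl-2, had no summit within 1000 bp in any list.

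**Figure D2:**
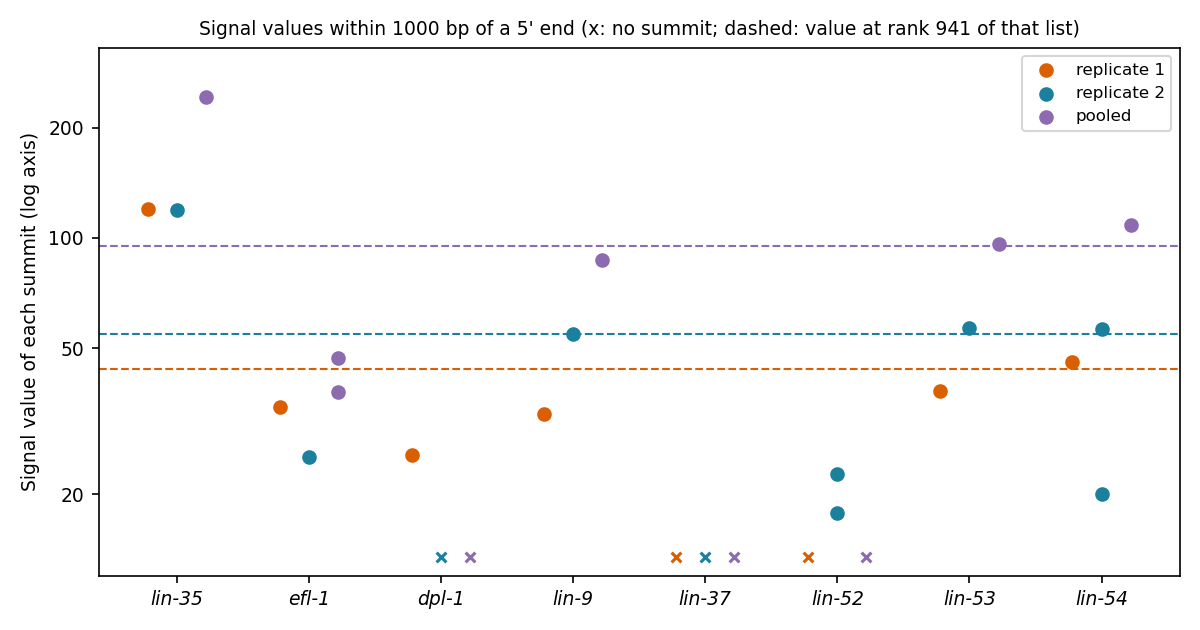
Signal value of every summit within 1000 bp of a 5' end (vertical log axis) for each gene in replicate 1, replicate 2 and the pooled list; crosses mark no summit and dashed lines the value at rank 941 of each list. Only lin-35 stands well above the dashed lines, while lin-54, lin-53 and lin-9 lie near them.

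In the MuvB core, lin-54, lin-53 and lin-9 had upstream regions in both replicates, and lin-37 and lin-52 had none in the pooled list. The DNA-binding subunit gene lin-54 (WBGene00003037, chromosome IV, 13241044 to 13243401, plus strand) scored 46.0 in replicate 1 and 56.5 in replicate 2, while its score in the pooled and IDR lists was 108.6. The summit lay 418, 442 and 422 bp upstream in replicate 1, replicate 2 and the pooled list. It was inside the 5' UTR of the neighbouring ribosomal protein gene rpl-12, 25, 49 and 29 bp downstream of that gene's outermost 5' end. The 5' ends of lin-54 and rpl-12 are 393 bp apart on opposite strands, so in each list the summit was on the rpl-12 side, outside the sequence between them. Replicate 2 also held a weak region 566 bp downstream in lin-54 coding sequence (20.1).

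The gene lin-53 (WBGene00003036, chromosome I, 9618196 to 9619760, minus strand) encodes an RbAp46/48-like histone-binding protein that is shared with other chromatin complexes. Its values were 38.3 in replicate 1 and 56.7 in replicate 2, while the pooled and IDR lists gave 96.3, with the summit 189, 222 and 224 bp upstream. The value is just inside the IDR set, at rank 916 of 941. The summit lay between lin-53 and nra-2, a nicalin homologue on the other strand whose 5' end is 467 bp away, and was 9.5 bp from their midpoint in the IDR list. The paralogue rba-1, the next gene downstream of lin-53, had 1 weak summit, 520 bp downstream of its 5' end in replicate 2 (18.4).

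The scaffold gene lin-9 (WBGene00002998, chromosome III, 8900237 to 8904131, minus strand) was just outside the IDR set. Its values were 33.1 in replicate 1 and 54.8 in replicate 2. In the pooled list it scored 86.9 at rank 1141. Its -log10 q-value in that list was 1.79, above the lowest of the IDR set, 1.55. Those of lin-35, lin-53 and lin-54 were 1.79, 1.83 and 1.88, so q-values and signal values gave different orders. The summit, at the centre of the printed lin-9 sequence, lay 148, 185 and 184 bp upstream in replicate 1, replicate 2 and the pooled list, with no closer 5' end. In replicate 2 the region ranked 939 of 20425, and in replicate 1 it ranked 2093 of 10468. A further pooled region, 1285 bp upstream (66.2), was closer to unc-32 and the non-coding gene ZK637.19, and was found in replicate 2 (44.9) and not in replicate 1.

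The remaining MuvB genes, lin-52 and lin-37, had little or no signal. At lin-52 (WBGene00003035, chromosome III, 9824083 to 9824750, minus strand) replicate 2 alone had regions, with values of 22.7 at 504 bp upstream, in coding sequence of ZK632.9, and 17.8 at 104 bp downstream in lin-52 itself. Both were below the list's median of 22.9. At lin-37 (WBGene00003022, chromosome III, 7070890 to 7072552, minus strand) the nearest pooled summit was 5287 bp away (52.8) and the nearest IDR summit 42034 bp away. Both genes follow a gene on their own strand closely, with gaps of 126 bp to ZK632.9 and 60 bp to ZK418.5.

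By mean replicate value the order was lin-35 (119.8 ± 0.475), lin-54 (51.3 ± 7.43), lin-53 (47.5 ± 13.0) and lin-9 (43.9 ± 15.3, SD, n = 2 each). In both replicates lin-35 was above the other 3, whose ranges over the replicates overlap each other. Within each replicate lin-9 was the lowest of these 3, while lin-54 was above lin-53 in replicate 1 and marginally below it in replicate 2. All genes share the same 2 libraries, and no test was made of these differences. The log2 ratio of replicate 2 over replicate 1 was -0.01 at lin-35, 0.30 at lin-54, 0.57 at lin-53 and 0.73 at lin-9, against a median of 0.30 and quartiles of 0.04 and 0.58 over the IDR regions. The lin-9 ratio was above that upper quartile and the lin-35 ratio below the lower one. Replicate summits were 24, 33 and 37 bp apart at lin-54, lin-53 and lin-9, near the IDR median of 28 bp.

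**Figure D3:**
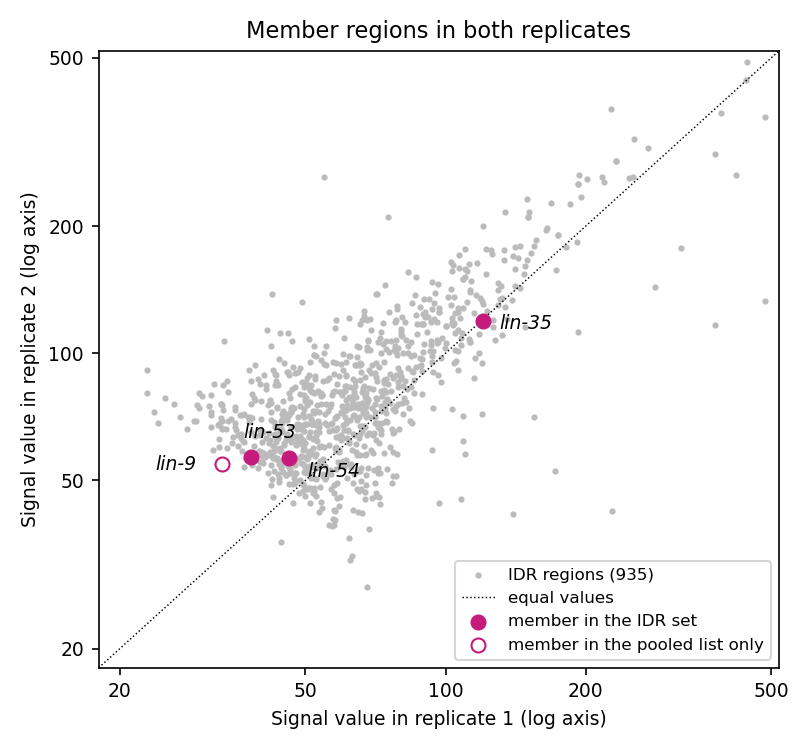
Signal value in replicate 1 (horizontal log axis) against replicate 2 (vertical log axis) for the 935 IDR regions matched in both replicates, with summits at most 200 bp away, in grey, and for lin-35, lin-54, lin-53 and lin-9. The point for lin-35 lies on the line of equal values, and those of the other 3 genes lie above it, at the low end of the cloud.

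The 3 members with an IDR summit are the 3 with a head-to-head neighbour, a gene on the opposite strand whose 5' end lies within 500 bp upstream. This was noticed after the values were seen, and an excess of summits in such promoters was already known for the whole set, so it is no independent evidence. An IDR summit was found at 3 of 3 members with such a neighbour and at 0 of 5 without one. Over all protein-coding genes it was found at 7.47% of the 1848 with such a neighbour (9.25% of all genes) and at 3.01% of the others. The distance to small RNA genes was taken from the members' 5' ends and not from the summits. The nearest tRNA, snoRNA, snRNA, miRNA or rRNA gene was 1967 bp from the 5' end at lin-54 and 9125 bp or more away at the other 7 genes.

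When only the 941 highest-scoring regions of a replicate were used, lin-35 and lin-54 had a summit in replicate 1, where 3.52% of all genes did. In replicate 2 lin-35, lin-9, lin-53 and lin-54 had one, against 3.13% of all genes. So lin-35 and lin-54 were on both short lists, and lin-53 and lin-9 were there in replicate 2 only. The lin-9 value of 54.8 was just past the last value of that list, and the lin-53 value in replicate 1 (38.3) was under that replicate's limit of 43.8.

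The DREAM-type elements were described in the 250 bases before to 50 after each gene's outermost 5' end, on both strands. TTTGAA was in 6 of 8 member promoters, against 62.5% of all promoters. The palindromic CHR form TTCGAA was in 1 of 8, at lin-37, against 18.2%, and TTTNNCGC in 4 of 8 (efl-1, lin-9, lin-53 and lin-54), against 18.8%. The promoter of lin-35, with the strongest region, held none of the 3 motifs. Within 150 bp of the lin-35 summit there was none either. At the 6 pooled member summits, TTTGAA was found in 5 windows and TTTNNCGC in 4. The 6 include 2 summits at efl-1 and the lin-9 summit, which are outside the IDR set. At the members' IDR summits, both motifs were in the lin-53 and lin-54 windows and neither was at lin-35. Of 548 windows at nuclear IDR summits near 5' ends, 39.4% held TTTGAA and 26.5% held TTTNNCGC. The GC content of the windows at the lin-35, lin-53, lin-54 and lin-9 summits was 38.2%, 39.5%, 43.2% and 46.5%, against a median of 45.7% over those IDR windows (quartiles 39.9% and 51.2%) and 34.3% over all promoters.

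The other genes of the pathway are described in 5 lists, to be read against the 3.42% of all genes with an IDR summit and the 30% with a pooled summit. Of 24 other synMuv genes, 2 had an IDR summit (8.33%), the THAP-domain gene lin-15B (104, 430 bp upstream) and epc-1, an enhancer of polycomb homologue (101, 112 bp upstream, with Y111B2A.34 10 bp closer). In the pooled list 16 of the 24 had one (66.7%, against 30% of all genes). Of 7 synMuv suppressor and germline chromatin genes, 2 had an IDR summit (28.6%, against 3.42% of all genes). They were zfp-1, an AF10 homologue (241, 774 bp upstream), and the chromodomain gene mrg-1 (130), whose summit was closer to spcs-2. In the pooled list 4 of the 7 had a summit (57.1%, against 30% of all genes).

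Among 22 G1 and mitotic regulators the cyclin-dependent kinase inhibitor cki-1 had the only IDR summit (133, 261 bp upstream), which is 4.55% against 3.42% of all genes. A pooled summit was found at 10 of the 22 (45.5%, against 30%). The cyclin E gene cye-1 missed the limit narrowly, with an IDR summit of 269 at 1008 bp downstream, in its intron and 11 bp into a tRNA gene. No IDR summit was found at the 22 DNA replication genes or the 22 germline and meiosis genes matched. At 3.42% of all genes, lists of this size hold under 1 such gene, so these counts are near the background. In the pooled list 14 (63.6%) of the replication genes and 9 (40.9%) of the germline genes had a summit, against 30% of all genes. All these shares, the 30% included, count a gene even where another gene's 5' end was closer to the summit. That was so at the replication genes mcm-3, cdc-6, orc-5, psf-1, div-1, lig-1, rfc-1 and rpa-2. It was also so at the germline genes deps-1, csr-1 and htp-3. The same held in the pooled list for the synMuv genes lin-36, arle-14, mep-1, hda-1, trr-1, epc-1 and ssl-1. Further cases were mes-6 and mrg-1 of the suppressor list and the regulators cye-1, cdk-1, lin-23 and bub-1. The orc-5 region was the one at cyb-1, a listed mitotic regulator. The bub-1 region was the one at lin-61, a listed synMuv gene. Each of these shared regions counts in the shares of both lists. The median of the highest pooled value, over the genes with one, was 64.4 for the other synMuv genes, 87.7 for the suppressor and germline chromatin genes, 52.6 for the G1 and mitotic regulators, 52.0 for replication genes and 41.2 for germline genes, against 48.2 over all genes with a pooled summit. No test was made of these lists.

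**Figure D4:**
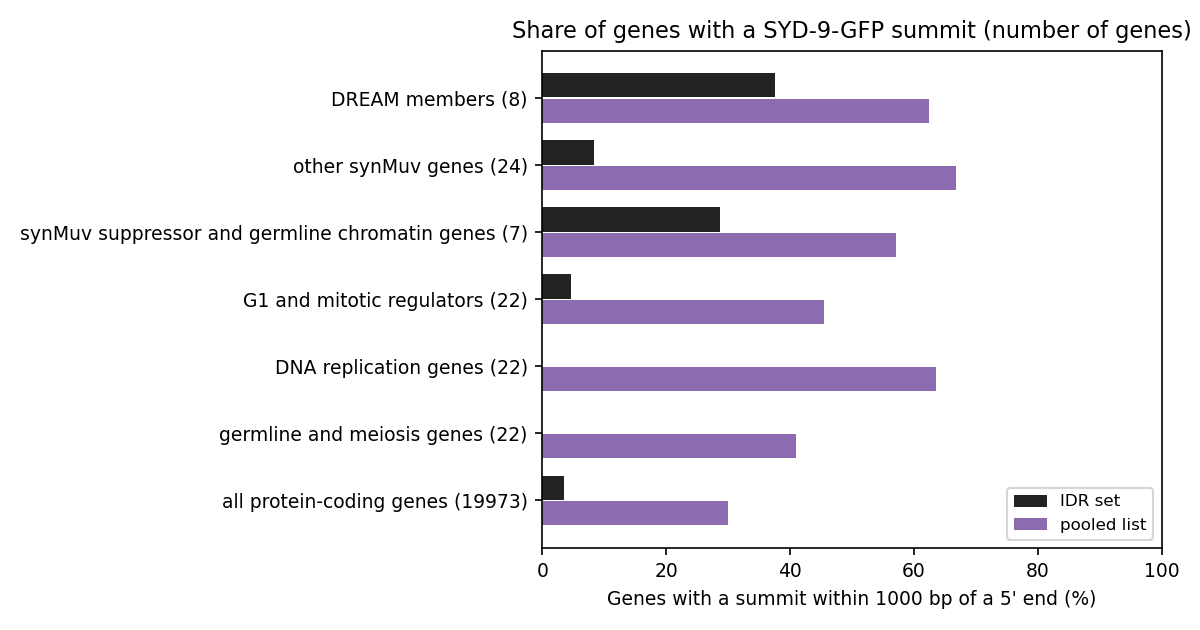
Share of genes (horizontal axis, %) with an IDR summit (black) or a pooled summit (purple) within 1000 bp of a 5' end, for the 8 DREAM genes, 5 gene lists and all 19973 nuclear protein-coding genes, with the number of genes in brackets. The members stand at 37.5% and 62.5%, and all genes at 3.42% and 30%.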

How the data were processed

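Chromatin immunoprecipitation and sequencing of SYD-9-GFP gave 2 biological replicates of 1 group. The authors deposited region lists in builds ce10 and ce11 for each replicate, for both replicates pooled and for the set kept by an IDR threshold; the ce11 lists were used, since the annotation is of that build. The deposited score (signal value) is relative to a control, per the narrowPeak layout and the deposited descriptions, and a further deposited column is -log10 of a q-value. The aligner, peak caller, versions and IDR threshold are not given in the sources used here. Scores may be scaled differently from list to list.

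Genes and 5' ends were those of Ensembl release 115 (WBcel235), matched by symbol, and sequence was read from the RefSeq genome of the same assembly, in which every region end fell within its chromosome. Annotated 5' ends stand for start sites, since most worm transcripts are trans-spliced. Summits are column 2 plus column 10. Replicate regions were matched to a summit within 200 bp. Of the genes in 5 lists, 1 (cdc-45) matched no gene. Only the calculation of distances was checked, on positions placed at known distances from 5' ends. The 1000 bp assignment and the search for closer genes were not checked that way. Python 3.11.15, NumPy 2.4.6 and matplotlib 3.10.9 were used.

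The members, lists and motifs were chosen with earlier results of these data known, so counts are given beside those of all genes with no test. Named genes are the members, efl-2 and rba-1, any gene with a 5' end closer to a member's summit, up to 3 genes of each list by IDR signal value, and the 3 most like lin-35. Listed genes are also named where another gene's 5' end was closer to the pooled summit or where a region was shared. The gene cye-1 and the head-to-head pairs were singled out after their values were seen.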

Additional observations from a re-analysis of the deposited data

How the results depend on the processing

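Of the alternatives run, a distance of 500 bp, the outermost 5' end and region overlap in place of the summit left each count or share they were run on within 1.5 times its main value. Among the higher-scoring 470 IDR regions, 1 member (lin-35) had a summit, 0 members were the closest gene, and 1.75% of all genes had a summit. At 250 bp lin-54 was lost from both lists, which left 2 members with an IDR summit and 4 with a pooled one. At that distance the share of all genes was 1.41% for the IDR set and 12.6% for the pooled list, and with the higher-scoring 50% of pooled regions it was 17.6%. With 1 replicate left out, 2 to 4 members had a summit among the 941 highest-scoring regions, 0 to 2 members were the closest gene, and the lin-35 summit lay at -233 to -232 bp. Without replicate 2 lin-53 was lost, and without replicate 1 lin-9 was gained. The calls at lin-53 and lin-9 thus depend on the replicate used, and the cause was not tested. With 2 replicates and no read counts, values near the IDR limit cannot be ordered.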
